A study of Mus musculus with 4 samples.

Results

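The genes described here are 7 genes of the intracellular calcium store, the sarcoplasmic or endoplasmic reticulum, followed across the cells of mouse popliteal vessels: the calcium pumps Atp2a2 and Atp2a3, the pump regulator Pln, the store proteins Hrc, Casq2 and Srl, and the store sensor Stim1. They were chosen by name for their roles in filling, buffering and sensing the store, with earlier results of these data known. They make up 7 of the 32286 genes listed for each library. All 3 gene expression libraries held at least 1 molecule count of each of the 7. The study applied droplet single-cell RNA sequencing with a 10X 3′ kit to dispersed popliteal vessels and set lymphatic muscle beside venous smooth muscle. Every mouse was an adult of the WT1GFPCre strain, Wt1tm1(EGFP/cre)Wtp/J, crossed to Ai9-tdT, Gt(ROSA)26Sortm9(CAG-tdTomato)Hze/J, so that no library lacked the Cre allele or the reporter. All mice received an Evans blue dye injection into the footpad under K/X anaesthesia. The 2 PLV libraries, from popliteal lymphatic vessels, were each a pool of 2 mice digested for 30 min with collagenase I, Dispase II, DNAse and Liberase. The 1 mixed library was a pool of 2 mice whose popliteal lymphatic vessels and blood vessels were digested for 60 min with collagenase I and Dispase II alone, tagged with the hashtag antibodies TotalSeq-A0306 and A0305, and run together.

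Muscle cells contract when calcium enters the cytosol, much of it released from the reticulum through ryanodine and IP3 receptors, and they relax as it is pumped back or out of the cell. SERCA pumps, encoded by the Atp2a genes, refill the store; phospholamban, encoded by Pln, holds the SERCA2 pump back until protein kinase A or CaMKII phosphorylates it. Calsequestrin and the histidine-rich calcium binding protein buffer calcium inside the store, and STIM1 senses an emptied store and opens ORAI channels in the plasma membrane. In lymphatic vessels, cycles of store release and refilling take part in the pacemaking that drives the rhythmic contractions of the vessel wall.

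The sequences upstream of Pln, Hrc and Casq2 are shown because these 3 genes differed most between kinds of muscle cell. Each is the forward strand in RefSeq's GRCm38.p6 annotation, 5′ to 3′, 231 bases running from 250 to 20 bases before the gene's start. That start is the one in RefSeq, which for Pln and Hrc differs from the GENCODE start given below. Capitals mark letters matching a searched motif.
Pln, chr10:53337436-53337666: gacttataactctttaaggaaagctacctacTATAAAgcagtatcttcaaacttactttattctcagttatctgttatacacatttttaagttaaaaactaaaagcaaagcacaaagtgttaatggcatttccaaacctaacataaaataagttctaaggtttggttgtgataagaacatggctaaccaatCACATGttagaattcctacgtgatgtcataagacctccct
Hrc, chr7:45335019-45335249: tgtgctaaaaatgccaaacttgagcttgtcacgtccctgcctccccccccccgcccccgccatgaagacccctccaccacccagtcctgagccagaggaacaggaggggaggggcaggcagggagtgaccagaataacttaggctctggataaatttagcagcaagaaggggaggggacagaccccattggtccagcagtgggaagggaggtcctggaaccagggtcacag
Casq2, chr3:102086165-102086395: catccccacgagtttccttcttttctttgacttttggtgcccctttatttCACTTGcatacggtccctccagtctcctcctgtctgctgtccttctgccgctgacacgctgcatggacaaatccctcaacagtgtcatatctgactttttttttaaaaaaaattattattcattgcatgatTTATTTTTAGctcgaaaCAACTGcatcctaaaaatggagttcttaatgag
The motifs searched on both strands were the E-box CANNTG, the TATA-like hexamer TATAAA, the CArG box bound by serum response factor, and the MEF2 site. In the Pln window, TATAAA began 219 bases before the start and an E-box lay 59 bases before it. The Hrc window held no match. In Casq2, E-boxes lay 200 and 52 bases before the start and a MEF2 site lay 69 bases before it. Of 32851 mouse promoter windows of this length, 63.6% held an E-box, 11.8% TATAAA, 2.76% a MEF2 site and 1.42% a CArG box. The windows of Stim1, with an E-box 182 bases before its start, and of Atp2a3, with no match, were also searched, and the RefSeq promoter table matched 5 of the 7 genes, Atp2a2 and Srl not being among them.

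In GENCODE M21 on GRCm38, the genes lay on separate chromosomes except Hrc and Stim1. Pln (ENSMUSG00000038583) ran from 53337667 to 53345987 on the forward strand of chromosome 10, in 2 to 3 exons according to the transcript. It lay wholly inside Cep85l, a gene of the reverse strand, and the reverse-strand transcript Gm47644 lay inside Pln; the use of strand in counting is not given in the sources used here, so reads of Pln could have been mixed with those of either gene. Atp2a2 (ENSMUSG00000029467) spanned 122453513 to 122502225 on the reverse strand of chromosome 5, and Atp2a3 (ENSMUSG00000020788) spanned 72961169 to 72993044 on the forward strand of chromosome 11. On chromosome 7, Hrc (ENSMUSG00000038239) ran from 45335290 to 45338974 and Stim1 (ENSMUSG00000030987) from 102267806 to 102437319, both forward. Casq2 (ENSMUSG00000027861) ran from 102086415 to 102146514 on the forward strand of chromosome 3, with the non-coding genes Gm43244 and 4632404M16Rik inside it. Srl (ENSMUSG00000022519) ran from 4480216 to 4541816 on the reverse strand of chromosome 16.

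Filters left 1909 cells in PLV replicate 1, 516 in PLV replicate 2 and 994 in the mixed library, with medians of 3372, 4886.5 and 6162 unique molecules (UMIs) per cell and no barcode shared between libraries. Cells were clustered without the 7 genes or the other genes of the calcium list, and clusters were named from marker genes that include none of them. Muscle-like cells numbered 440, 110 and 344, and all 12 muscle markers were detected in their sums. Other classes with at least 20 cells in all 3 libraries were fibroblast-like, blood endothelial-like, lymphatic endothelial-like, Schwann-like and pericyte-like cells. The mixed library differed from the PLV libraries in vessels, digestion, run and mice, and these cannot be told apart; the muscle-like sums held 1633 and 580 UMIs of Xist in the PLV libraries against 1 in the mixed library, and 0, 0 and 302 UMIs of the Y-linked Ddx3y. The hashtags did not separate vessels: the median share of the first tag was 80.1% in the Sorbs2 kind of muscle cell and 79.8% in the Ano1 and Hmcn2 kind, both defined further on, and 79.8% in near-empty droplets. Levels below are counts per 1000000 UMIs (CPM) of the summed cells of a class in 1 library, with 95% exact Poisson intervals that cover counting error only. In tests, each pool of mice gave 1 sum per class or kind. With library as a block, p-values rest on how far differences between classes or kinds vary from library to library. The classes were fitted together and share 1 estimate of that variation. PLV against mixed was fitted without a block, and the spread between libraries there comes from the PLV libraries alone. A gene passed at a Benjamini-Hochberg adjusted p of at most 0.05 over all genes fitted.

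Atp2a2, Atp2a3, Pln, Hrc, Casq2 and Stim1 were each more abundant in muscle-like cells than in the named endothelial, fibroblast and Schwann classes. An unnamed endothelial cluster of PLV replicate 1, given below, held Atp2a3 and Casq2 above the muscle-like levels of that library. In edgeR's quasi-likelihood test with library as a block, all 6 were higher in muscle-like than in fibroblast-like cells, where 17.3% of the 10509 genes tested were higher and 21.5% lower. The same 6 genes were higher against blood endothelial-like cells (19.3% of genes higher), lymphatic endothelial-like cells (21.1%) and Schwann-like cells (18.9%). Against pericyte-like cells 4 of them were higher, Pln, Atp2a2, Atp2a3 and Stim1, with 6.92% of all genes higher. Srl had too few UMIs to be tested. Because the genes were chosen with earlier results of these data known, the shares over all genes are no test of how many of the 6 passed. With DESeq2 the threshold was missed by Pln against blood endothelial-like (log2 difference 9.48, adjusted p = 0.0681) and Schwann-like cells (8.14, 0.145) and by Hrc against the same classes (5.08, 0.123, and 5.79, 0.106). Without PLV replicate 1, Hrc (adjusted p = 0.0832) and Casq2 (0.0571) missed it against Schwann-like cells. At the coarser clustering described below, Casq2 missed it against Schwann-like cells (adjusted p = 0.237).

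Atp2a2 encodes SERCA2, the pump of heart and smooth muscle. Its level in muscle-like cells was 909 CPM (870–950), 898 CPM (832–966) and 709 CPM (677–743) in PLV replicates 1 and 2 and the mixed library. A UMI was seen in 92.0%, 94.5% and 93.3% of these cells. Pericyte-like cells came next at 511, 464 and 303 CPM. Lymphatic endothelial-like cells at 191, 187 and 128 CPM and fibroblast-like cells at 175, 206 and 134 CPM followed and overlapped each other. Blood endothelial-like cells overlapped both, with muscle-like cells 5.24, 5.56 and 5.46 times higher than them in the same libraries. Near-empty droplets of the mixed library, a measure of free RNA, held 111 CPM (91.3–134). Fibroblast-like and lymphatic endothelial-like cells of that library held 134 and 128 CPM, and the part of free RNA in these levels was not tested. Pln was also found in those droplets, as given below, while fibroblast-like cells of the mixed library held 0 Pln UMIs. Every muscle-like value lay above every value of the other 5 classes. The fold over fibroblast-like cells was 5.19, 4.36 and 5.30 in the libraries, and the fitted log2 difference was 2.07 ± 0.17 (SE, adjusted p = 6.19e-09, edgeR). Over pericyte-like cells the log2 difference was 1.17 ± 0.17 (adjusted p = 7.09e-05, edgeR).

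Atp2a3 encodes SERCA3, a pump of endothelial and blood cells. Muscle-like cells held 88.0 CPM (76.2–101), 84.3 CPM (65.2–107) and 66.3 CPM (56.7–77.0) in PLV replicates 1 and 2 and the mixed library. In blood endothelial-like cells it stood at 22, 23.5 and 26.4 CPM, and in fibroblast-like cells at 0, 4.43 and 0 CPM. All muscle-like values were above all blood endothelial-like values, with a log2 difference of 1.67 ± 0.35 (SE, adjusted p = 8.34e-04, edgeR). Left out of that class were 74 cells of PLV replicate 1, an unnamed cluster led by the arterial endothelial genes Sema3g, Cytl1 and Gja5, in which Atp2a3 stood at 293 CPM (240–354), above the muscle-like level. At the coarser clustering (Leiden resolution 0.5), where Sema3g was among the leading genes of the blood endothelial-like cluster of that library, the difference was 0.91 and did not pass (adjusted p = 0.0764). Pericyte-like cells held 46.5, 16.3 and 11.3 CPM, below the muscle-like values in each library, by a fitted log2 difference of 1.76 ± 0.48 (adjusted p = 0.0204, edgeR). The fitted value ran from 1.46 to 2.63 with 1 library left out.

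Pln encodes phospholamban, the small membrane protein that restrains SERCA2. In muscle-like cells it reached 598 CPM (567–631) and 483 CPM (435–534) in the PLV libraries, from 1339 and 378 UMIs. The mixed library gave 114 CPM (101–128) from 296 UMIs, below both PLV libraries without overlap. Among the other named classes Pln was at or near 0 except in pericyte-like cells: fibroblast-like and Schwann-like cells held 0 UMIs in every library, blood endothelial-like cells 3, 0 and 0, lymphatic endothelial-like cells 1, 0 and 0, and immune cells 0. The fold over fibroblast-like cells was at least 247, 72.6 and 80.3, taking a floor of 3 UMIs per library, and the fitted difference passed (adjusted p = 2.16e-09, edgeR). Pericyte-like cells of PLV replicate 1 stood at 50.1 CPM (27.4–84.0) from 14 UMIs, against 0 UMIs in the other libraries. The fold of muscle-like over pericyte-like cells was 11.95 (7.10–21.9) there and at least 19.8 and 10.05 in the others, with a fitted log2 difference of 4.57 ± 0.44 (SE, adjusted p = 4.09e-06, edgeR) that ran from 4.197 to 10.64 with 1 library left out, the highest without PLV replicate 1, whose pericyte-like cells held all 14 UMIs.

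The comparison with pericyte-like cells depended on where clusters were divided. None of the 4 genes that were higher passed at the coarser clustering (Leiden resolution 0.5) or with at most 10% mitochondrial UMIs, and Pln also missed the threshold at resolution 2 (adjusted p = 0.301). With the coarser clusters, all 61 muscle cells of the mixed library's Sorbs2 kind fell into a cluster named pericyte-like, and the fitted Pln difference turned to −1.99. With DESeq2 in place of edgeR it was 5.92 and missed the threshold (adjusted p = 0.456). An unnamed cluster of 26 cells of PLV replicate 1, led by Rgs5, was left out of the pericyte-like class. This cluster held Pln above the muscle-like level of that library, as given under other observations.

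Hrc encodes a histidine-rich calcium binding protein of the reticulum lumen. Its muscle-like level was 57.2 CPM (47.7–68.0), 42.1 CPM (29.0–59.2) and 17.0 CPM (12.3–22.8), in the order of PLV replicates 1 and 2 and the mixed library. Fibroblast-like, lymphatic endothelial-like and Schwann-like cells held 0 UMIs in all libraries, and blood endothelial-like cells 0, 0 and 10 UMIs. The 10 UMIs in blood endothelial-like cells of the mixed library came to 6.28 CPM, and the muscle-like level there was 2.70 (1.34–6.01) times higher. The fold over fibroblast-like cells was at least 23.6, 6.34 and 11.9, with an adjusted p of 0.000141 (edgeR). Pericyte-like cells held 21.5, 16.3 and 30.3 CPM, from 6, 2 and 8 UMIs. Muscle-like cells were above pericyte-like cells in both PLV libraries and below them in the mixed library, and the fitted log2 difference of 0.79 ± 0.71 did not pass (adjusted p = 0.575, edgeR). With 1 library left out, that difference ran from 0.199 to 1.61.

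Casq2 encodes cardiac calsequestrin, a high-capacity calcium buffer. Muscle-like cells held 30.4 CPM (23.6–38.5), 23.0 CPM (13.6–36.3) and 45.5 CPM (37.6–54.5) in PLV replicates 1 and 2 and the mixed library. Fibroblast-like cells held 0, 2.22 and 0 CPM, below all of these, with folds of at least 12.6, 10.4 (1.64–432, from 1 UMI) and at least 32.0, and the difference passed (adjusted p = 2.19e-05, edgeR). Against pericyte-like cells, at 14.3, 24.4 and 0 CPM, the groups overlapped and the difference did not pass (1.85 ± 0.75, adjusted p = 0.125, edgeR). This log2 difference ran from 0.866 to 2.60 with 1 library left out.

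Srl encodes sarcalumenin, a luminal calcium binding protein of striated muscle. It was close to the detection limit in all libraries, with 9, 5 and 12 UMIs over all kept cells, of which muscle-like cells held 4, 2 and 6. These counts allow no comparison at this depth.

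Stim1 encodes the sensor that couples an emptied store to calcium entry. Its muscle-like level was 162 CPM (146–180), 198 CPM (168–232) and 215 CPM (198–234) in PLV replicates 1 and 2 and the mixed library. Fibroblast-like cells held 62.9, 42.1 and 68.6 CPM and pericyte-like cells 78.7, 122 and 151 CPM. No muscle-like value overlapped any of these. The folds over fibroblast-like cells were 2.58, 4.70 and 3.13, with a log2 difference of 1.43 ± 0.23 (SE, adjusted p = 4.32e-05, edgeR). Over pericyte-like cells the folds were 2.06 (1.34–3.33), 1.62 (0.953–2.97) and 1.42 (1.03–2.01), and the interval of PLV replicate 2 includes 1. The difference from pericyte-like cells was smaller, 0.91 ± 0.26 (adjusted p = 0.0242, edgeR), and it missed the threshold when PLV replicate 1 (adjusted p = 0.213) or PLV replicate 2 (0.0593) was left out. Atp2a3 against pericyte-like cells also missed it without PLV replicate 2 (adjusted p = 0.0899).

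**Figure D1:**
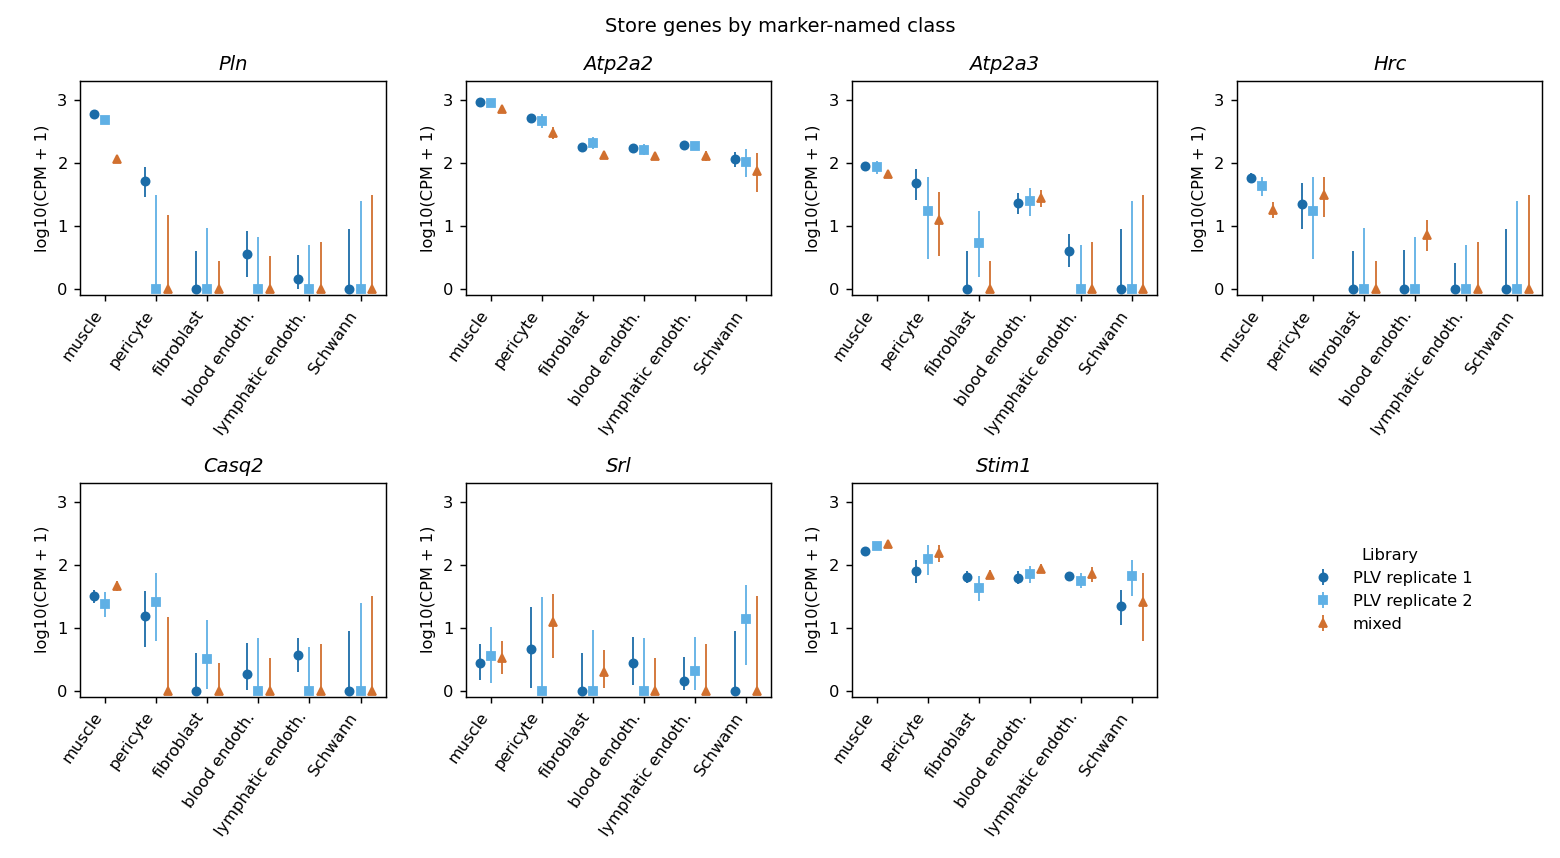
Level of each of the 7 genes, as log10(CPM + 1), in the summed cells of 6 classes; each point is 1 library (PLV replicate 1, PLV replicate 2, mixed) and bars are 95% exact Poisson intervals. Pln stands at 598, 483 and 114 CPM in muscle-like cells and at 0 CPM in fibroblast-like and Schwann-like cells, while Atp2a2 has UMIs in all 6 classes.

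The muscle-like cells were not uniform in these genes. Clusters fell into 3 kinds by marker genes that include no calcium store gene: one led by Sorbs2, one by Ano1 and Hmcn2, and one, present in the mixed library alone, by P2rx1 and Col12a1. The Sorbs2 kind made up 65% of muscle-like cells in PLV replicate 1 (286 cells; exact binomial 95% interval 60.3–69.5), 48.2% in PLV replicate 2 (53 cells; 38.6–57.9) and 17.7% in the mixed library (61 cells; 13.8–22.2). The Ano1 and Hmcn2 kind, whose markers include the calcium-activated chloride channel of the lymphatic pacemaker, held 154, 57 and 209 cells, and the P2rx1 and Col12a1 kind 74 cells, 21.5% (17.3–26.2). Of the member genes, Pln and Hrc were higher in the Sorbs2 kind, Casq2 and Stim1 were higher in the Ano1 and Hmcn2 kind, and neither pump passed the test in either direction. In this comparison 15.5% of the 7093 genes tested were higher and 15.9% lower in the Sorbs2 kind.

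Pln divided the kinds nearly completely. The Sorbs2 kind held 888 CPM (841–937), 820 CPM (739–907) and 704 CPM (626–789) in PLV replicates 1 and 2 and the mixed library, from 1338, 378 and 295 UMIs. The Ano1 and Hmcn2 kind held 1, 0 and 1 UMI in the same libraries, and the P2rx1 and Col12a1 kind none. Of all Pln UMIs in muscle-like cells, only those 2 molecules fell outside the Sorbs2 kind. The ratio of the 2 kinds was 650 (116.5–2.569e+04) in PLV replicate 1, at least 88.1 in PLV replicate 2 and 950 (169–3.765e+04) in the mixed library, and the Sorbs2 kind was at least 194-fold above the P2rx1 and Col12a1 kind. The fitted difference passed with an adjusted p of 4e-18 (edgeR) and stayed between 9.59 and 9.95 on the log2 scale over 13 settings, values that depend on the prior count edgeR adds to a group near 0.

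Cells with a Pln UMI were counted in each kind. A Pln UMI was seen in 264 of 286, 49 of 53 and 48 of 61 cells of the Sorbs2 kind (92.3%, 92.5% and 78.7%). In the Ano1 and Hmcn2 kind it was seen in 1 of 154, 0 of 57 and 1 of 209 cells, where a count of 0 allows up to 5.26% of cells with a UMI. Fibroblast-like cells, as a class that should lack Pln, had it in 0 of 289, 0 of 87 and 0 of 275 cells, which allows up to 1.04%, 3.45% and 1.09%; these limits are on cells with a UMI, not on cells that express the gene. Median UMIs per cell were 4910, 8560 and 6545 in the Sorbs2 kind and 4095, 5909 and 6224 in the Ano1 and Hmcn2 kind. After thinning every cell to 1500 UMIs the shares were 64.8%, 64.2% and 58.6% against 0%, 0% and 0.508%. Single cells of the Sorbs2 kind carried from 0 to 20, 27 and 25 Pln UMIs in the 3 libraries, with medians of 4, 6 and 3. The near-empty droplets of the mixed library, a measure of free RNA, held Pln at 53.0 CPM (39.7–69.3), above its level of 0.741 CPM in the Ano1 and Hmcn2 kind of that library. Cep85l, on the opposite strand around Pln, stood at 43.8, 60.7 and 47.7 CPM in the Sorbs2 kind and at 62.9, 68.3 and 35.6 CPM in the Ano1 and Hmcn2 kind, with 10.9 CPM in the P2rx1 and Col12a1 kind. Cep85l was higher in the Ano1 and Hmcn2 kind in both PLV libraries and higher in the Sorbs2 kind in the mixed library, and the part of reads shared between the genes was not tested.

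Hrc was also concentrated in the Sorbs2 kind. Its level there was 82.3 CPM (68.5–98.2), 67.3 CPM (45.7–95.5) and 57.3 CPM (36.7–85.2) in PLV replicates 1 and 2 and the mixed library. The Ano1 and Hmcn2 kind held 5.47 CPM (1.49–14.0), 6.20 CPM (0.751–22.4) and 10.4 CPM (5.67–17.4), and the P2rx1 and Col12a1 kind 7.26 CPM (2.66–15.8). The kinds did not overlap in any library. Near-empty droplets of the mixed library held Hrc at 2.998 CPM (0.618–8.76), an interval that overlaps those of the lower kinds there. The ratio was 15.1 (5.74–56.1), 10.8 (2.76–93.5) and 5.52 (2.74–11.5), and the fitted log2 difference was 3.17 ± 0.34 (SE, adjusted p = 1.81e-08, edgeR), or 3.89 without the mixed library. Cells with an Hrc UMI made up 33.2%, 43.4% and 29.5% of the Sorbs2 kind against 1.30%, 3.51% and 5.74% of the other kind; at 1500 UMIs per cell these were 12.1%, 5.66% and 3.45% against 1.47%, 2.04% and 1.52%.

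Casq2 ran the other way. It stood at 50.6 CPM (35.6–69.7), 40.3 CPM (21.5–69.0) and 52.6 CPM (41.1–66.4) in the Ano1 and Hmcn2 kind, and at 43.6 CPM (30.5–60.3) in the P2rx1 and Col12a1 kind. In the Sorbs2 kind it was 20.6 CPM (14.0–29.2), 10.8 CPM (3.52–25.3) and 26.2 CPM (13.1–47.0), from 31, 5 and 11 UMIs. All 3 Sorbs2 sums were below all values of the other kinds, though within the Sorbs2 kind of PLV replicate 1 a cluster of 143 cells described further on held 43.8 CPM and the other 143 cells 2.37 CPM. In the mixed library, the 30 Sorbs2 cells still named muscle-like at that finer clustering held 8.78 CPM from 2 UMIs, the other 31 being named pericyte-like there. The Ano1 and Hmcn2 kind was 2.46 (1.48–4.10), 3.72 (1.24–13.3) and 2.00 (1.06–4.2) times higher, and the fitted log2 difference of the Sorbs2 over the Ano1 and Hmcn2 kind was −1.18 ± 0.29 (SE, adjusted p = 0.00242, edgeR). DESeq2 gave −1.21 and did not pass (adjusted p = 0.116), and keeping cells with at most 10% mitochondrial UMIs gave −2.66, which passed. The skeletal muscle marker list, of 8 genes, was also higher beside it, summing to 80.6, 52.7 and 71.9 CPM in the Ano1 and Hmcn2 kind against 6.64, 2.17 and 23.9 CPM in the Sorbs2 kind, and to 90.8 CPM in the P2rx1 and Col12a1 kind; Ckm was at 0 UMIs in the first 2 kinds and detected in the third, and the part of such RNA in the Casq2 result was not tested. The 5 cardiac markers summed to 0 UMIs in the Sorbs2 kind and to 3, 0 and 3 UMIs in the Ano1 and Hmcn2 kind.

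Stim1 differed in the same direction as Casq2. It was at 268 CPM (232–308), 285 CPM (230–350) and 259 CPM (233–288) in the Ano1 and Hmcn2 kind. The Sorbs2 kind held 111 CPM (94.7–129), 137 CPM (105–175) and 124 CPM (92.7–163), and the P2rx1 and Col12a1 kind lay between them at 189 CPM (160–221). The values of the kinds did not overlap. The ratio of the Ano1 and Hmcn2 over the Sorbs2 kind was 2.42 (1.96–2.99), 2.09 (1.5–2.93) and 2.09 (1.56–2.85), and the fitted log2 difference was −1.03 ± 0.16 (SE, adjusted p = 1.16e-05, edgeR), between −1.05 and −0.96 over the settings tried. Shares of cells with a UMI were 38.8%, 67.9% and 60.7% in the Sorbs2 kind and 60.4%, 64.9% and 71.3% in the Ano1 and Hmcn2 kind, an order that was mixed before thinning; at 1500 UMIs they were 14.2%, 22.6% and 20.7% against 33.1%, 26.5% and 33.0%.

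Atp2a2, the pump that phospholamban regulates, was close to level between the kinds that differ so much in Pln. The Sorbs2 kind held 854 CPM (808–902), 887 CPM (803–978) and 692 CPM (615–776), and the Ano1 and Hmcn2 kind 1022 CPM (950–1098), 912 CPM (811–1023) and 717 CPM (673–764). In the P2rx1 and Col12a1 kind it was 706 CPM (649–765). The intervals of the first 2 kinds overlapped in PLV replicate 2 and the mixed library and not in PLV replicate 1. The ratio of the Ano1 and Hmcn2 over the Sorbs2 kind was 1.20 (1.09–1.31), 1.03 (0.882–1.20) and 1.04 (0.908–1.19), with a fitted log2 difference, Sorbs2 over the other, of −0.01 (adjusted p = 0.972, edgeR) whose sign turned in several settings. Median Atp2a2 UMIs per cell were 4, 6 and 4 in the Sorbs2 kind against 4, 5 and 4.

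For Atp2a3, the second pump, the 2 kinds shared by all libraries did not differ past the threshold. Its level was 90.3 CPM (75.8–107), 104 CPM (76.8–138) and 54.9 CPM (34.8–82.4) in the Sorbs2 kind and 83.4 CPM (63.8–107), 55.8 CPM (33.1–88.3) and 37.1 CPM (27.5–48.8) in the Ano1 and Hmcn2 kind. The Sorbs2 kind was higher in each of the 3 libraries, by 1.08 (0.795–1.49), 1.87 (1.07–3.41) and 1.48 (0.863–2.47) times, and the log2 difference was 0.54 ± 0.21 (SE, adjusted p = 0.0528, edgeR). It passed in 5 of the other settings, with adjusted p from 0.0153 to 0.0478. In the mixed library the P2rx1 and Col12a1 kind held 120 CPM (97.4–146), 3.23 (2.28–4.64) times the Ano1 and Hmcn2 kind and 2.18 (1.38–3.60) times the Sorbs2 kind. A UMI was seen in 68.9% of its cells, and in 12.2% against 4.06% and 6.90% at 1500 UMIs per cell. With 1 library of that kind there was no test.

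Srl was at 4, 2 and 0 UMIs in the Sorbs2 kind and 0, 0 and 1 in the Ano1 and Hmcn2 kind, with 5 UMIs, 6.05 CPM (1.96–14.1), in the P2rx1 and Col12a1 kind. These are too few to order the kinds.

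Other measures differed between the kinds alongside the member genes, and their part in the results was not tested. All 12 muscle markers were detected in every kind, summing to 4.764e+04, 5.041e+04 and 4.979e+04 CPM in the Sorbs2 kind and 4.91e+04, 4.265e+04 and 5.001e+04 CPM in the Ano1 and Hmcn2 kind. The 10 fibroblast markers summed to 575, 456 and 2179 CPM against 3403, 2857 and 5273 CPM, and the 10 pericyte markers to 2443, 2111 and 2226 CPM against 2150, 1697 and 1368 CPM. The blood endothelial markers summed to 41.2, 10.9 and 23.9 CPM against 204, 102 and 72.6 CPM, and the lymphatic endothelial markers to 136, 93.3 and 153 CPM against 82.0, 21.7 and 19.3 CPM. The median mitochondrial share was 5.32%, 5.64% and 5.14% against 4.06%, 4.05% and 3.57%.

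**Figure D2:**
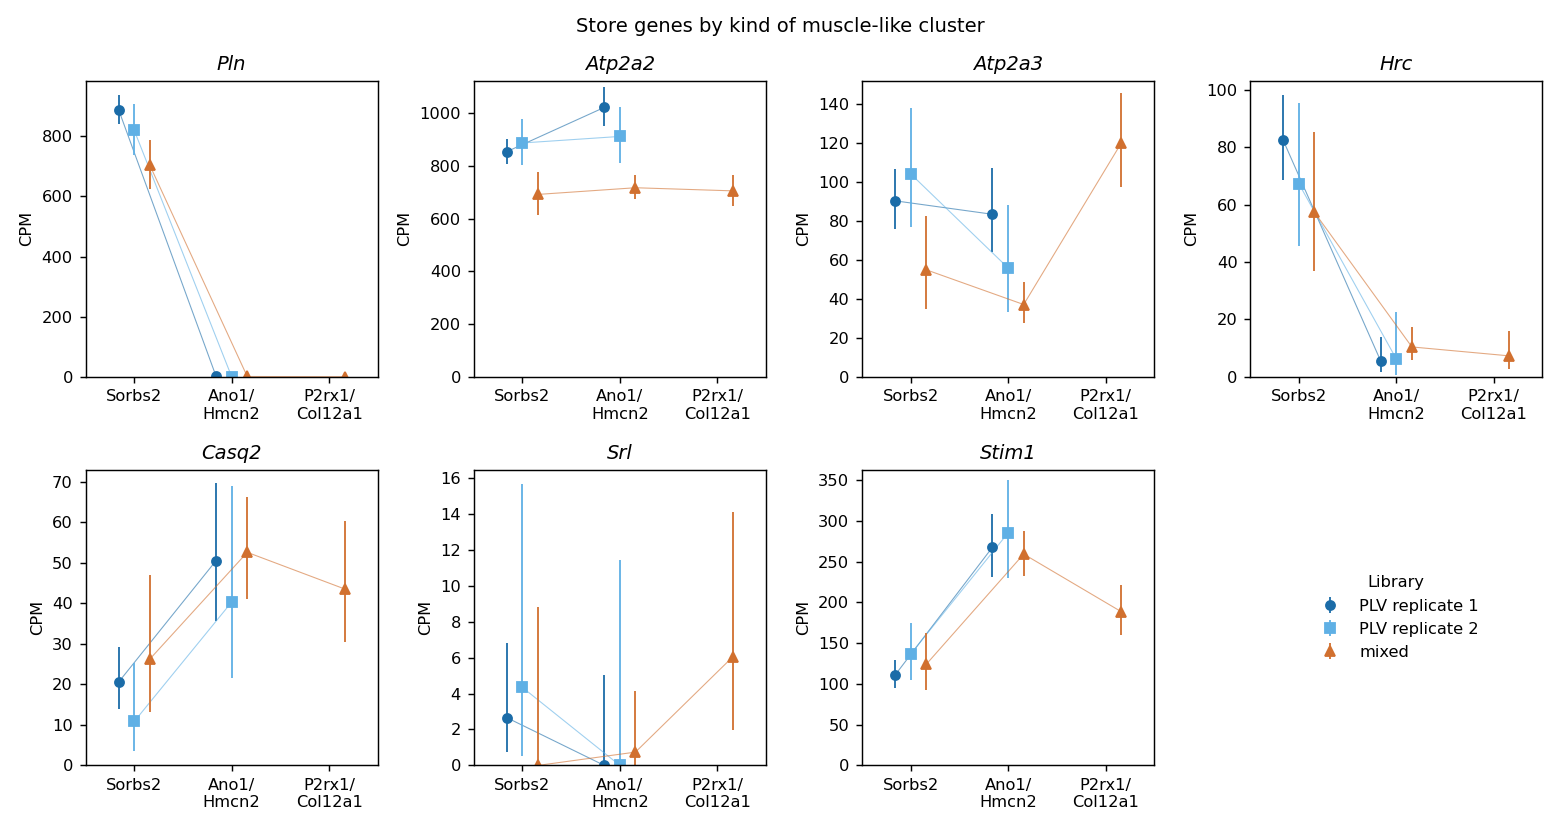
CPM of each of the 7 genes in the summed cells of 3 kinds of muscle-like cluster, with points of 1 library joined by a line and 95% exact Poisson intervals; the P2rx1 and Col12a1 kind has the mixed library alone. Pln falls from 888, 820 and 704 CPM in the Sorbs2 kind to near 0 in the others and Hrc falls with it, Casq2 and Stim1 are higher in the Ano1 and Hmcn2 kind, and Atp2a2 is close to level.

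Between libraries, muscle-like sums held Pln and Hrc at higher and Casq2 at lower values in the PLV libraries. These genes passed edgeR's test, which with 1 mixed library cannot tell a difference of the groups from one of that library alone. In this comparison 7.82% of the 10845 genes tested were higher and 8.66% lower in the PLV libraries, and the single mixed library, which has no spread of its own, was taken to vary like the PLV libraries; edgeR called 1787 genes in either direction and DESeq2 196. The log2 difference was 2.03 ± 0.29 for Pln (SE, adjusted p = 1.88e-10, edgeR), 1.38 ± 0.30 for Hrc (adjusted p = 0.000114) and −0.93 ± 0.27 for Casq2 (adjusted p = 0.00768). With DESeq2, Hrc (adjusted p = 0.405) and Casq2 (0.762) did not pass, and Casq2 also missed the threshold with at least 1000 UMIs per cell (0.0995) and at resolution 0.5 (0.0659). At resolution 0.5, where the mixed library's Sorbs2 cells lay outside the muscle-like class, the differences were 9.71 for Pln and 2.20 for Hrc. Differences that did not pass were −0.49 ± 0.24 for Stim1 (adjusted p = 0.156), 0.13 ± 0.28 for Atp2a2 (0.808) and 0.16 ± 0.25 for Atp2a3 (0.722).

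Within 1 kind, no member gene that was tested passed between libraries, in a test with the same single mixed library and the same assumption on its spread. Among cells of the Sorbs2 kind, Pln was at 888, 820 and 704 CPM, and the log2 difference of PLV over mixed was 0.10 ± 0.29 (SE, adjusted p = 0.892, edgeR). The difference in the same cells was 0.24 ± 0.36 for Hrc (adjusted p = 0.778), −0.77 ± 0.75 for Casq2 (0.633), −0.22 ± 0.30 for Stim1 (0.743), 0.15 ± 0.29 for Atp2a2 (0.828) and 0.61 ± 0.36 for Atp2a3 (0.372). None of the 6 passed, where 4.58% of the 6545 genes tested passed in either direction, 300 by edgeR against 19 by DESeq2, and 1155 had an unadjusted p under 0.05. In the Ano1 and Hmcn2 kind, the 4 genes tested did not pass either: Atp2a3 at 0.68 ± 0.33 (adjusted p = 0.277), Casq2 at −0.46 ± 0.33 (0.471), Stim1 at −0.20 ± 0.27 (0.745) and Atp2a2 at 0.15 (0.828). There 2.93% of the 8752 genes tested passed, and 1554 had an unadjusted p under 0.05. The share of the Sorbs2 kind among muscle-like cells moved with the summed Pln and Hrc levels, at 65%, 48.2% and 17.7%. Whether the change of a gene within a kind differs from its change in the sum was not tested, and differences within a kind below the size of these errors would have been missed.

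**Figure D3:**
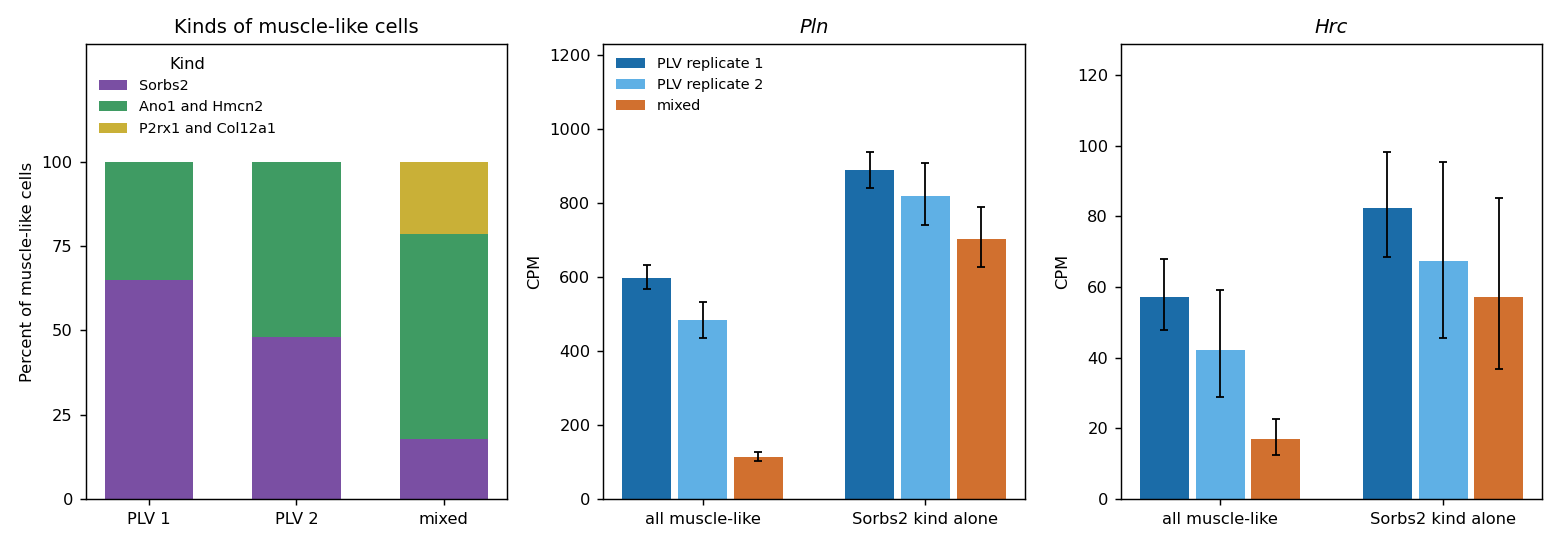
Left, share of muscle-like cells in each kind by library, in percent; right, CPM of Pln and Hrc in all muscle-like cells and in the Sorbs2 kind alone, with 95% exact Poisson intervals. Pln drops from 598 to 114 CPM between PLV replicate 1 and the mixed library over all muscle-like cells, and from 888 to 704 CPM in the Sorbs2 kind.

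The Sorbs2 kind of PLV replicate 1 split further at a finer clustering into a pair of clusters of 143 cells each, one led by Rgs4 and one by Nr4a3, an immediate early transcription factor. Casq2 was at 43.8 CPM (29.4–63, 29 UMIs) in the Rgs4-led and 2.37 CPM (0.287–8.55, 2 UMIs) in the Nr4a3-led cluster, a ratio of 18.5 (4.69–160). Atp2a3 was at 134.6 against 55.6 CPM, a ratio of 2.42 (1.68–3.52), and Hrc at 107 against 62.7 CPM, a ratio of 1.71 (1.18–2.49). Casq2, Atp2a3 and Hrc were thus all more abundant in the Rgs4-led cluster of this library, whose cells had a median of 4312 UMIs against 5838. Atp2a2 was closer to level at 937 against 790 CPM, a ratio of 1.19 (1.06–1.33). Pln, at 898 against 881 CPM, had a ratio of 1.02 (0.914–1.14), and Stim1 one of 1.09 (0.795–1.5). Both clusters come from 1 library, so these ratios have no replicate check, and the clustering was examined after the levels of the kinds were known.

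**Figure D4:**
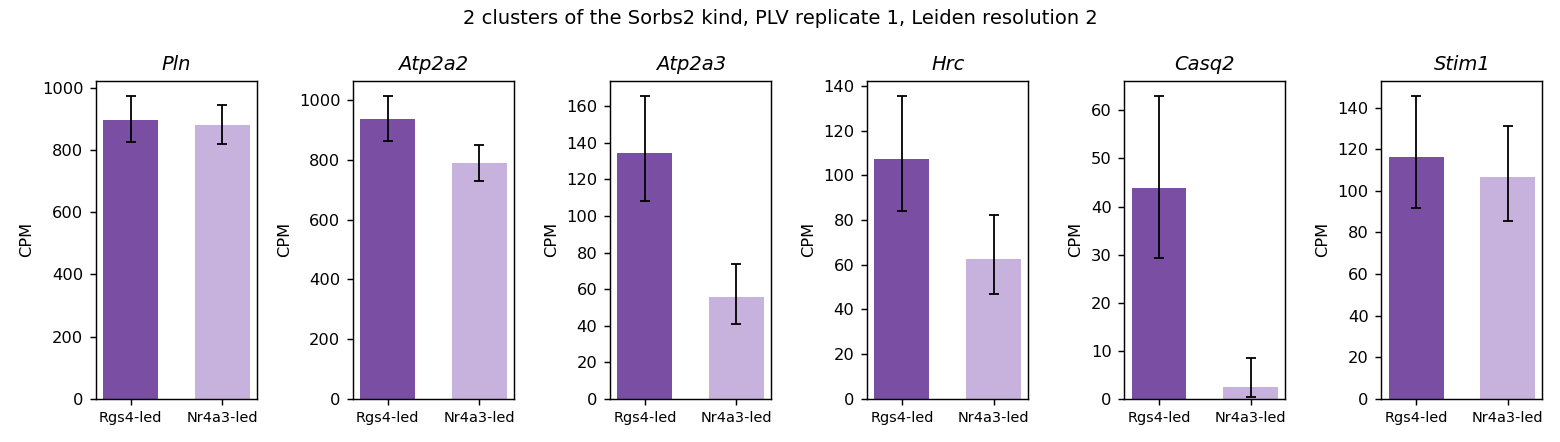
CPM of the genes in the Rgs4-led and Nr4a3-led clusters of the Sorbs2 kind in PLV replicate 1, 143 cells each, with 95% exact Poisson intervals. Casq2 stands at 43.8 against 2.37 CPM, while Pln is at 898 against 881 CPM.

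The other genes of calcium storage and release are given by role. A list of 68 genes in 8 roles, drawn up with earlier results of these data known, held 66 that were found in the files, 59 of them beside the 7. Against fibroblast-like cells 40 of the 59 were tested, of which 17 were higher, 14 lower and 9 did not pass, where 17.3% of all genes tested were higher and 21.5% lower, shares that also stand behind the counts by role below; their median log2 difference was 0.31 beside −0.03 for all genes. Of the kinases, phosphatases and anchors that act on phospholamban and its partners, 6 of 8 tested were higher, among them Ppp1r1a, a phosphatase inhibitor (8.09), Camk2g, a CaMKII chain (2.90), Ppp1cb, a phosphatase catalytic subunit (2.74), and the protein kinase A subunits Prkacb (1.74) and Prkaca (1.21), each as a log2 difference; Akap7, an anchor, was higher by 1.22 and Ppp1ca lower, at −0.62. Release channels gave 2 higher and 2 lower of 4, with the ryanodine receptor Ryr2 at 6.99 and the IP3 receptor Itpr1 at 3.07 against the IP3 receptors Itpr2 at −3.58 and Itpr3 at −4.45. In fibroblast-like cells Ppp1r1a held 0 UMIs in every library and Ryr2 1, 0 and 1 UMIs. Their log2 differences depend on the prior count edgeR adds to a group near 0. Itpr2, Itpr3, Fkbp1b, Rcn1 and Cracr2b fell short of the 10 UMIs set for naming a list gene and are named after their values were seen. Membrane and junction genes gave 4 higher, 1 lower and 2 that did not pass of 7, including the junctophilin Jph2 (6.1), Mrvi1 (7.12), which tethers a kinase to the IP3 receptor, and the counter-ion channels Tmem38b (3.93) and Tmem38a (1.44); the lower gene was Fkbp1b (−4.69), a ryanodine receptor binding protein.

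Extrusion genes were higher in 3 of 4 cases, the sodium-calcium exchangers Slc8a2 (5.40) and Slc8a1 (3.25) and the plasma membrane pump Atp2b4 (1.72). Slc8a2 held 1, 0 and 0 UMIs in fibroblast-like cells, so its difference also depends on the prior count. Store buffers and chaperones went the other way: of 9 tested beside Hrc and Casq2, 7 were lower and none higher, with Rcn1 at −3.82, calreticulin Calr at −1.46, Rcn3 at −1.46, Hsp90b1 at −1.30, Calu at −1.14, Canx at −1.08 and Hspa5 at −0.71. Both pump regulators tested beside Pln were lower, sorcin Sri at −1.20 and S100a1 at −0.89. Of 6 genes of store-operated entry tested beside Stim1, 2 were higher, Cracr2b by 2.57 and Orai3 by 0.73, 1 was lower, the channel Orai1 at −1.34, and 3 did not pass. Other regulators of the pump were at or near the detection limit in muscle-like cells: sarcolipin Sln and Strit1 had 0 UMIs in all libraries, and Mrln 0, 0 and 1. Of the skeletal muscle forms, the pump Atp2a1 had 1, 0 and 0 UMIs and the calsequestrin Casq1 4, 0 and 1.

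Between the kinds, 34 of the 59 were tested, of which 9 were higher in the Sorbs2 kind, 8 lower and 17 did not pass, where 15.5% of all genes tested were higher and 15.9% lower, with a median log2 difference of −0.04 beside −0.01 for all genes. Kinases and phosphatases gave 4 of 8 higher, Prkaca at 1.44 (adjusted p = 5.76e-06, edgeR), Camk2g at 1.11 (adjusted p = 3.93e-06), Ppp1cb at 0.72 and Ppp1ca at 0.53. Camk2d, a further CaMKII chain, was lower, at −0.82. Prkaca, the kinase subunit that phosphorylates phospholamban, was at 121, 88.9 and 62.0 CPM in the Sorbs2 kind and 45.1, 37.2 and 25.9 CPM in the Ano1 and Hmcn2 kind, without overlap. Both release channels tested were higher, Ryr2 at 1.28 (adjusted p = 2.06e-06) and Itpr1 at 0.48. Ryr2 stood at 138, 193 and 122 CPM against 65.6, 93.1 and 46.7 CPM, again without overlap. In the extrusion group Slc8a1 (0.95) and Atp2b1 (0.70) were higher, and in the junction group Tmem38b (0.90) was higher and Mrvi1 (−0.76) and Asph (−0.61) lower. Stim2, the second store sensor, was lower in the Sorbs2 kind as Stim1 was, at −1.28 (adjusted p = 0.00512, edgeR). The store buffers Sdf4 (−0.62), Rcn2 (−0.61) and Canx (−0.46) and the regulator Sri (−0.58) were also lower. Between PLV and mixed muscle-like sums 3 of 41 tested were higher and 5 lower, near the 7.82% and 8.66% over all genes, with a median of −0.07 beside 0.01.

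**Figure D5:**
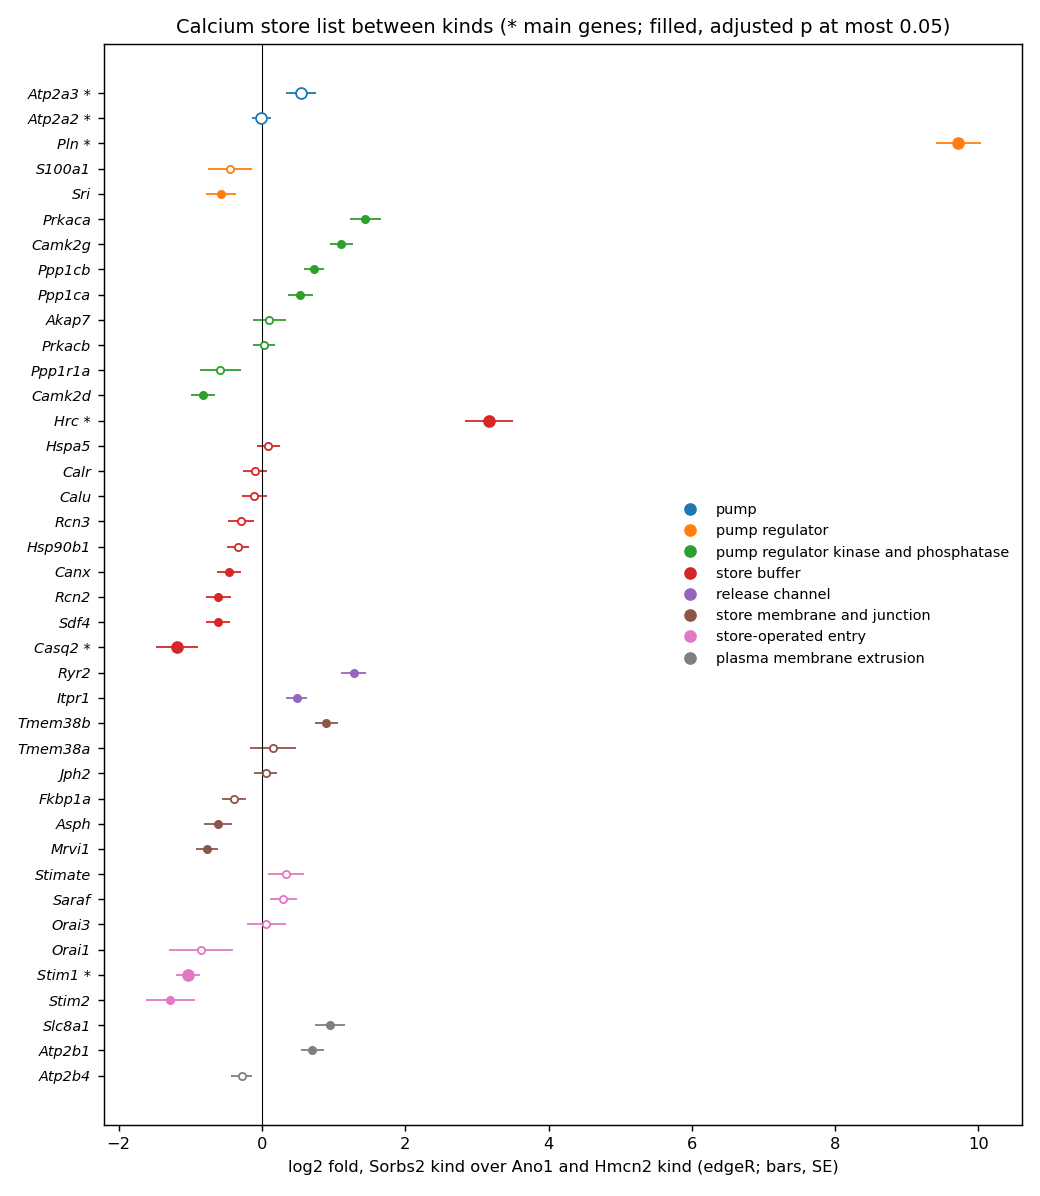
Log2 difference of the Sorbs2 over the Ano1 and Hmcn2 kind, with standard errors, for the tested genes of the calcium list arranged by role; filled points have an adjusted p of at most 0.05 in edgeR's test and an asterisk marks the member genes. Pln and Hrc (3.17) lie farthest to the right, and Stim2 (−1.28), Casq2 (−1.18) and Stim1 (−1.03) farthest among the lower ones.

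The genes whose pattern was most like that of each member were ranked by Pearson's r of log2(CPM + 1) over 18 sums, 6 classes in 3 libraries, among 10387 genes. These points share libraries and depth, so r is a description. Nearest to Pln were Asb2 (r = 0.991), Susd5 (0.988), Map3k7cl (0.988), Slc6a17 (0.98) and Kcnmb1 (0.973), the last a subunit of a calcium-activated potassium channel of smooth muscle. Nearest to Hrc were Myom3 (0.959), Gm13861 (0.957) and Stum (0.953). For Atp2a2 they were Flna (0.962), Lpp (0.961) and Plin4 (0.96), and those for Atp2a3 included Ttll7 (0.958) and Notch3 (0.931). Casq2 was nearest to Rbm24 (0.958), Pgam2 (0.945) and Xirp1 (0.932), genes known from striated muscle, and Stim1 to Gm15912 (0.904), Trappc6b (0.89) and Mylk (0.886), the kinase of the smooth muscle myosin light chain.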

How the data were processed

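The deposited files hold counts, whole UMIs per gene and droplet, made by the authors with Cell Ranger on GRCm38 and handled with Seurat per the submitters' processing notes, and with cellranger 6.1.2 per the file headers of the PLV libraries. Droplets with at least 500 UMIs and 300 genes, at most 15% mitochondrial and 20% haemoglobin UMIs were kept, which left 3372 to 6162 UMIs at the median, and 10, 3 and 3 predicted doublets were left out. The members and lists were chosen with earlier results of these data known. Cells of each library were clustered with scanpy 1.11.5 (2000 variable genes without the calcium list, 50 components, Leiden resolution 1) and named where at least 3 markers passed a 2-fold level; clusters holding markers of 2 classes were clustered again, a rule added after the clusters were seen. Unnamed clusters held 206, 71 and 23 cells. Because other genes of the same cells formed the clusters, many genes differ between classes and kinds, and the share of all genes called stands beside the counts of each comparison.

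UMI counts were summed per library and class, and tested in edgeR 4.0.16 (TMM factors, low-count filter, quasi-likelihood test, Benjamini-Hochberg adjustment), with library as a block except between PLV and mixed. In simulated sums in which 200 genes were given a 4-fold change, 97.95% were called for muscle against fibroblast (9876 genes), 100.0% between kinds (6775) and 85.86% for PLV against mixed (10521). All simulated sums were drawn from 1 common profile, without other differences between libraries or classes. The mixed sum was given the spread of the PLV libraries, so 85.86% does not measure how the test fares with the real mixed library. Settings tried were 1000 UMIs, 10% mitochondrial share, doublets kept, resolutions 0.5 and 2, DESeq2 1.42.0 and its size factors, no filter, no block, 2 classes alone in the fit, thinning, and each library left out. List genes were named where they passed against fibroblast-like cells or between kinds with at least 10 UMIs in the muscle-like sum of every library. One gene ranked by likeness of pattern is not reported here. The hashtag library entered the check of tag shares alone.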

Additional observations from a re-analysis of the deposited data

Results flagged for a closer look

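The Hrc level of muscle-like cells lay above that of pericyte-like cells in both PLV libraries and below it in the mixed library. The ratio of its CPM in muscle-like over pericyte-like cells was 2.67 (1.19–7.40) in PLV replicate 1 and 2.59 (0.662–22.3) in PLV replicate 2, and 0.561 (0.261–1.38) in the mixed library. The intervals of PLV replicate 2 and of the mixed library include 1, and the difference between the libraries was not tested. The pericyte-like values rest on 6, 2 and 8 UMIs. Beside this, the share of the Sorbs2 kind among muscle-like cells was 65%, 48.2% and 17.7%, and Hrc in that kind alone was 82.3, 67.3 and 57.3 CPM; their part in the ratio was not tested.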

How the results depend on the processing

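Each comparison was repeated under the settings listed with the methods; the fits within 1 kind, the splitting of clusters and the PLV against mixed values without 1 PLV library were chosen after seeing the data. Over these settings, 513 differences of the members stayed the same, 27 no longer passed, 6 newly passed and 20 turned, and 8 without a test moved. For fitted differences, staying the same meant keeping the direction and side of the threshold. The 513 include a few untested PLV against mixed values without 1 PLV library, judged by their distance from the main value. No paired analysis of PLV against mixed was possible, because these libraries came from different mice. Classes and kinds were compared with library as a block, except in the setting without it. Against pericyte-like cells, 1354 genes passed in all, against 471 at 10% mitochondrial UMIs and 255 at resolution 0.5, and 681–1250 with 1 library left out. Members higher were 4, but 0 at 10% mitochondrial UMIs, 0 at resolution 0.5, 2 without the library block, and 2–4 with a library left out. Differences from pericytes turned for Pln (−1.99) and Hrc (−0.40) at resolution 0.5 and for Hrc (−0.79) and Casq2 (−0.33) at 10% mitochondrial UMIs, settings in which cells of the Sorbs2 kind fell into pericyte-named clusters. At 10% mitochondrial UMIs, 69 of 94 pericyte-like cells of PLV replicate 1 joined a keratinocyte-named cluster, and at resolution 0.5 all 28 of PLV replicate 2 were named muscle. Against Schwann-like cells, 3616 genes passed and 2003–3542 without 1 library.

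Between kinds 2231 genes passed, 1252 by DESeq2, 1436 without the block and 1477–2423 without 1 library; members lower were 2, and 1 by DESeq2. Atp2a2, near 0 there, turned to 0.011 by DESeq2 and by its size factors, 0.063 without the filter, 0.066 at 1000 UMIs, 0.010 with doublets kept, 0.038 at 10% mitochondrial UMIs, 0.047 at resolution 2, and ran from −0.021 to 0.048 without 1 library. For PLV against mixed muscle, 1787 genes passed, 196 by DESeq2 and 713 at resolution 0.5. Members higher were 2, 1 by DESeq2; members lower were 1, and 0 by DESeq2, at 1000 UMIs and at resolution 0.5. Atp2a3 turned to −0.056 at 10% mitochondrial UMIs and −0.026 at resolution 2. In the Sorbs2 kind, 300 genes passed between libraries, 19 by DESeq2, 148 at resolution 2, 168 at 10% mitochondrial UMIs and 181 with doublets kept. Pln there turned to −0.41 at 1000 UMIs, −0.32 at 10% mitochondrial UMIs and −0.19 at resolution 2, Atp2a2 to −0.053 at 10% mitochondrial UMIs and Casq2 to 0.48 at 1000 UMIs, where 119 cells of this kind in PLV replicate 1 joined a keratinocyte-named cluster. In the Ano1 and Hmcn2 kind, 256 genes passed, 27 by DESeq2, 50 with doublets kept, 65 at resolution 2, 477 at 1000 UMIs and 480 at 10% mitochondrial UMIs. At resolution 0.5 the Sorbs2 kind could not be fitted. The cause was not tested beyond the cluster membership named. Low counts limited Srl throughout, Hrc outside the Sorbs2 kind, and Casq2 in pericyte-like cells and in the Sorbs2 kind of PLV replicate 2.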

Other observations

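The members were also seen in cells outside the named classes of the vessel wall, in clusters chosen for mention after their values were seen. In PLV replicate 1, an unnamed cluster of 26 cells led by Rgs5, Wtip and Tbx2 held Pln at 668 CPM (451–953, 30 UMIs in 14 of 26 cells), Atp2a2 at 957 CPM, Atp2a3 at 134 CPM and Hrc at 111 CPM. In the same library an unnamed cluster of 74 cells led by the arterial endothelial genes Sema3g, Cytl1 and Gja5 held Atp2a3 at 293 CPM (240–354, 106 UMIs in 42 of 74 cells), Casq2 at 38.7 CPM, and Pln at 47.0 CPM, from 17 UMIs in 5 cells.

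Casq2 had its highest level of any named class in cells named perineurial-like, at 247 CPM (162–362, 26 UMIs in 8 of 15 cells) in PLV replicate 1, and at 158 CPM (72.1–299) in the mixed library, where all 9 UMIs came from 1 of 10 cells. Of the 12 muscle markers, 5 were detected in these cells in PLV replicate 1 (142 UMIs, 1351 CPM) and 6 in the mixed library (53 UMIs, 928 CPM), with Acta2, Myh11, Cnn1, Des and Actg2 at 0 in both; skeletal muscle markers had 6 and 3 UMIs and cardiac markers 4 and 0. The fibroblast markers summed to 1.231e+04 and 6.759e+04 CPM in these cells against 4291 and 1068 CPM for the perineurial markers, so the name is uncertain, above all in the mixed library. Atp2a3 was found in blood cells: B-like cells held 166 CPM from 16 UMIs in PLV replicate 1 and 68.8 CPM from 5 UMIs in PLV replicate 2, T or NK-like cells 111 CPM, and an unnamed cluster of 9 cells led by the platelet genes Nrgn, Pf4 and Ppbp 930 CPM (481–1625, 12 UMIs in 6 of 9 cells). Stim1 was at 182 CPM (121–263) in T or NK-like cells, near its level in muscle-like cells of the PLV libraries. These clusters are small and no value here was tested.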
